A study of Homo sapiens with 12 samples.

Results

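The 10 genes described here are targets and partners of the YAP and TEAD proteins: CTGF, CYR61, ANKRD1, AMOTL1, AMOTL2, LATS2, YAP1, WWTR1, TEAD1 and TEAD4. They were picked by symbol from a table of 26475 gene symbols, and all 10 were found, CTGF and CYR61 under these older symbols. The 10 were selected with their response to BAY-850 already known, so their differences between BAY-850 and DMSO are given as a description, with no p-value. The study asked how BAY-850, a small molecule that blocks the bromodomain of the chromatin protein ATAD2, alters gene expression in 2 ovarian cancer cell lines. PA-1, a teratocarcinoma line grown in DMEM, and SK-OV-3, an adenocarcinoma line grown in RPMI, received either DMSO alone or BAY-850 at 5 µM, which was left on for 48 h, with 3 libraries in each of the 4 groups. The labels name no engineered allele in either line, and the data cover 1 line of each tumour type at 1 dose and 1 time.

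YAP1 and its relative TAZ, which the gene WWTR1 encodes, are coactivators that do not bind DNA themselves. They enter the nucleus when the Hippo kinases LATS1 and LATS2 are inactive and bind there to TEAD1 to TEAD4, which recognise DNA and recruit them to promoters and enhancers. CTGF, CYR61 and ANKRD1 are the most widely used readouts of this activity, while LATS2, AMOTL1 and AMOTL2 both respond to YAP and restrain it, which makes them feedback genes.

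The promoters are shown first because the TEAD proteins act through a short DNA motif. RefSeq promoter windows were at hand for 7 of the 10 genes, with more than 1 start for AMOTL2 and WWTR1; CYR61, TEAD1 and TEAD4 had none. The TEAD motif GGAATG, searched on both strands in the 250 bases before each start, was found in 4 of these 7 genes: CTGF, ANKRD1, YAP1 and AMOTL2. Of 35116 RefSeq promoter windows of the same length, 11.9% held it. The AP-1 motif TGANTCA was in 6.57% of these windows, and of the 7 genes in ANKRD1 only. The CArG box of SRF was in 1.16%, and none of the 7 had it. These shares are per window, while the 4 of 7 counts genes. The windows with a TEAD motif (GRCh38.p14) lay at chr6:131951373-131951622 on the minus strand for CTGF, chr10:90921088-90921337 on the minus strand for ANKRD1, chr11:102110197-102110446 on the plus strand for YAP1, and chr3:134374448-134374697 on the minus strand for the downstream of the AMOTL2 starts. They are printed 5′ to 3′ along the gene, with the TEAD motif (GGAATG, or CATTCC where it lies on the opposite strand) and, in ANKRD1, the AP-1 motif in capitals.
CTGF: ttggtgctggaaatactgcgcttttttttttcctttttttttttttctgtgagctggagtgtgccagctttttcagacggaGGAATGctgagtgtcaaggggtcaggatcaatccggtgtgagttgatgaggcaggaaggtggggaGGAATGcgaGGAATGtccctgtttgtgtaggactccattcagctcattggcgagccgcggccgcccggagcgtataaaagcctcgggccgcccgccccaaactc
ANKRD1: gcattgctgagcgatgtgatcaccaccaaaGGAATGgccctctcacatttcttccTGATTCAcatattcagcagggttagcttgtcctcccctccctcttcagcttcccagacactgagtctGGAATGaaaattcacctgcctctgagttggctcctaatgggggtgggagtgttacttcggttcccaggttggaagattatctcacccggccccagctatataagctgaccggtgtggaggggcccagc
YAP1: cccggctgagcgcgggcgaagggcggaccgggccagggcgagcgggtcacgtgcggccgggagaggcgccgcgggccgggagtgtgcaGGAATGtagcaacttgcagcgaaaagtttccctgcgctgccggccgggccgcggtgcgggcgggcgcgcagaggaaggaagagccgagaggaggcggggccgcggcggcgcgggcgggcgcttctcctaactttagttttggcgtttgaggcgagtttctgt
AMOTL2: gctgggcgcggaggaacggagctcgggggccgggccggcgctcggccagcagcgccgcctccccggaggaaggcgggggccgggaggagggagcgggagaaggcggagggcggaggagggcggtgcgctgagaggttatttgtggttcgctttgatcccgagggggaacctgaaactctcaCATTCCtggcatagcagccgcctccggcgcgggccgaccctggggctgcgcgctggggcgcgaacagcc

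**Figure D1:**
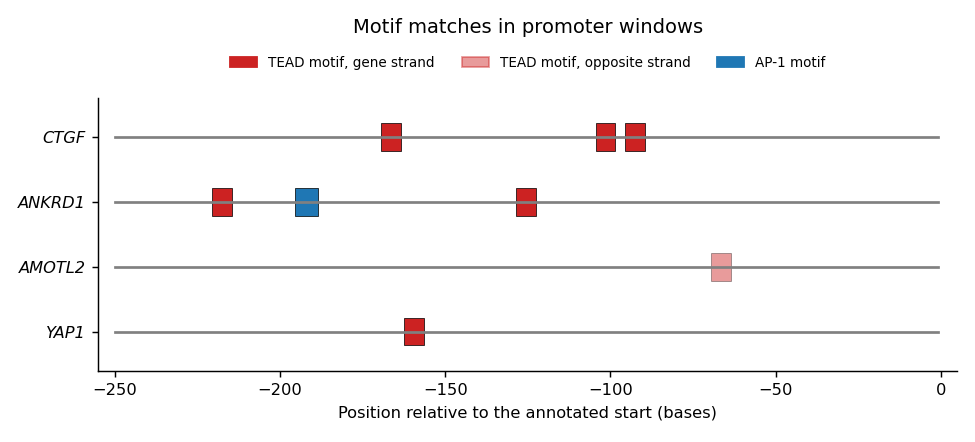
Positions of the TEAD and AP-1 motif matches in the 250 bases before the annotated start of CTGF, ANKRD1, YAP1 and AMOTL2; the x axis gives bases from the start, each grey line is a window and each box a match. CTGF held 3 TEAD matches, of which the 2 nearest the start lay at -104 to -99 and -95 to -90.

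In CTGF the motif occurred 3 times, at -169 to -164, -104 to -99 and -95 to -90 from the start, always on the strand of the gene. ANKRD1 held it at -220 to -215 and -128 to -123, with the AP-1 motif at -195 to -189 between them. YAP1 held it at -162 to -157, and AMOTL2 on the opposite strand at -69 to -64. Positions are counted from RefSeq starts. The GENCODE span of ANKRD1 given below reaches 90921276 and covers part of its window, with the match at -128 to -123. That of AMOTL2 covers its whole window. A match describes only the letters of these windows.

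All 12 libraries were deep, with 34544505 to 51840233 expected counts, so that the lowest count behind any value of the 10 genes was 843, for TEAD4. SK-OV-3 BAY-850 replicate 3 stood apart: it had the highest total and a count for 15629 genes, against 17425 to 18414 in the other 11 libraries. The lines matched their labels. SOX2, a stem cell factor, lay between 215 and 254 CPM in PA-1 and at 0.633 CPM or less in SK-OV-3, whereas ERBB2, the amplified receptor known from SK-OV-3, lay between 1542 and 2622 CPM in SK-OV-3 and between 60.1 and 70.7 CPM in PA-1. Keratins KRT8 and KRT18 were present at similar levels in both lines, and of the markers of other cell types the leukocyte gene PTPRC was at or below 0.0984 CPM and the liver gene ALB at or below 0.981 CPM. The endothelial gene PECAM1 was at 22.9 to 23.9 CPM in PA-1 with DMSO and 24.3 to 26.2 CPM with BAY-850, and at 2.51 to 3.75 CPM in SK-OV-3, and its part in the results was not tested. Levels are CPM, the counts of a gene scaled to a common library total, after TMM scaling over all 12 libraries, and differences are log2 values from edgeR fits within a line, each with its standard error (SE). In bulk RNA, fewer cells that express a gene and less RNA per cell cannot be told apart.

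CTGF (ENSG00000118523.5, chr6:131948176-131951373, minus strand, hg38) and CYR61 (ENSG00000142871.16, chr1:85580761-85583962, plus strand) encode secreted matrix-associated proteins of the CCN family. In SK-OV-3, the CTGF level was 191, 189 and 201 CPM with DMSO and 68.2, 66.1 and 59.7 CPM with BAY-850. The treated libraries were thus all far below the controls, at 0.337 times the DMSO level (log2 difference -1.57 ± 0.058, SE, n = 3 per group). In PA-1, CTGF was 274, 281 and 282 CPM with DMSO and 241, 250.4 and 255 CPM with BAY-850. These groups did not overlap either, but the gap was small, at 0.893 times the DMSO level (log2 difference -0.16 ± 0.052).

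CYR61 was the most abundant of the 10 genes in SK-OV-3 with DMSO per length of transcript. Its level there was 834, 841 and 844 CPM, against 399, 418 and 374 CPM with BAY-850. All 3 treated libraries lay at about the same low level, 0.477 times that of DMSO (log2 difference -1.07 ± 0.045). In PA-1, CYR61 was 554, 567 and 547 CPM with DMSO and 527, 487 and 476 CPM with BAY-850, again without overlap and with a small difference (0.895 times, log2 difference -0.16 ± 0.054). CTGF and CYR61 therefore shared a small difference in PA-1 and a larger one in SK-OV-3. The response in SK-OV-3 minus that in PA-1 was -1.42 ± 0.076 on the log2 scale for CTGF and -0.92 ± 0.071 for CYR61.

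ANKRD1 (ENSG00000148677.6, chr10:90912096-90921276, minus strand) encodes a nuclear ankyrin repeat protein first known from heart muscle. It differed from CTGF and CYR61 in that both lines showed a difference of similar size. In PA-1, its level was 523, 506 and 479 CPM with DMSO and 423, 391 and 385 CPM with BAY-850 (0.796 times, log2 difference -0.33 ± 0.056). In SK-OV-3, it was 589, 599 and 594 CPM with DMSO and 413, 427 and 446 CPM with BAY-850 (0.729 times, log2 difference -0.46 ± 0.049). Neither line had overlapping groups, and the response in SK-OV-3 minus that in PA-1 was -0.14 ± 0.071. With BAY-850, ANKRD1 took the place of CYR61 as the gene with the highest level per kb in SK-OV-3.

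**Figure D2:**
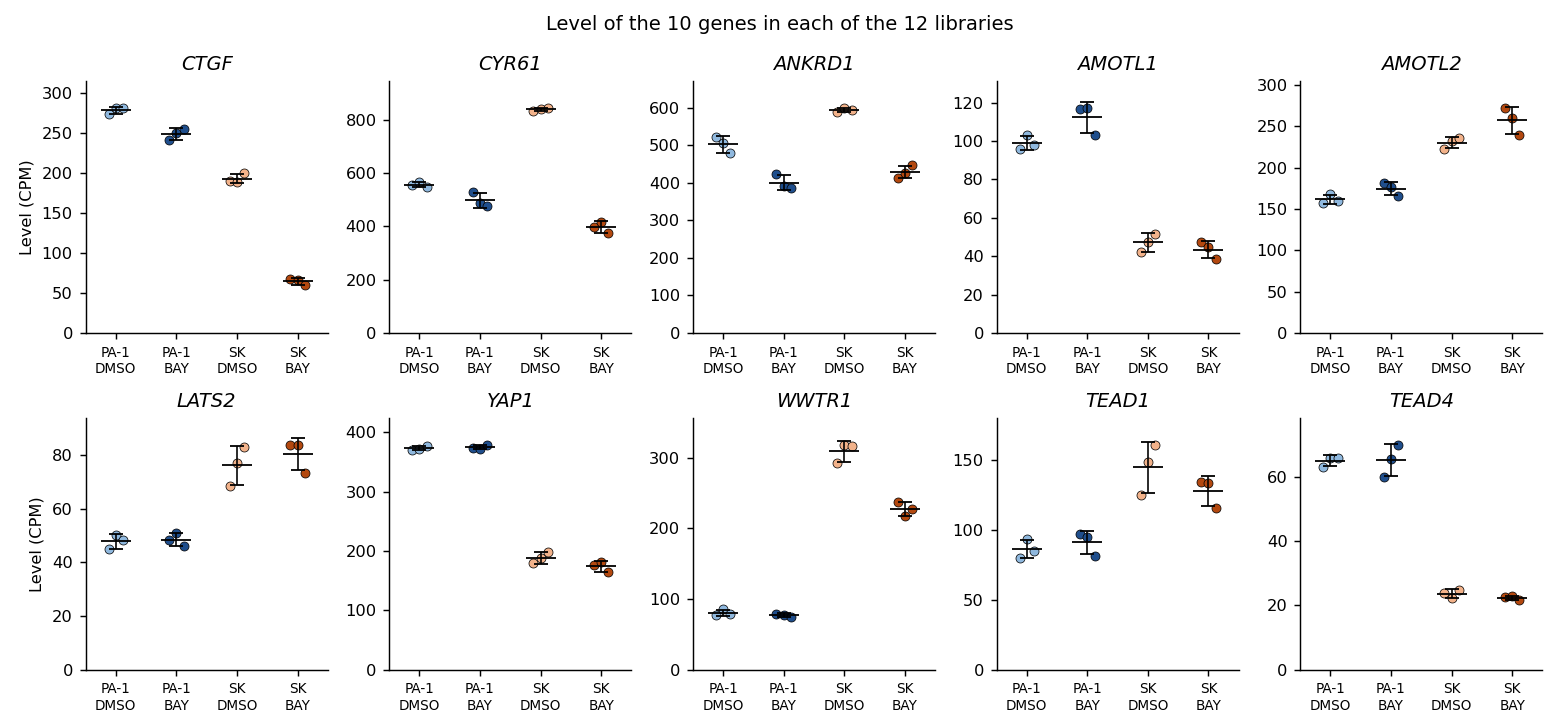
Level (CPM, linear axes from 0) of each of the 10 genes in the 12 libraries; points are libraries, horizontal lines the mean and bars the SD of 3 libraries. CTGF, CYR61, ANKRD1 and WWTR1 lie lower with BAY-850 in SK-OV-3, and the other panels show mostly the gap between the lines.

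The feedback genes lay within 0.19 of their controls on the log2 scale. AMOTL2 (ENSG00000114019.14, chr3:134355874-134375479, minus strand) and AMOTL1 (ENSG00000166025.17, chr11:94706431-94876753, plus strand) encode angiomotin-like proteins, which hold YAP at cell junctions. AMOTL2 was 222, 232 and 236 CPM with DMSO in SK-OV-3 and 272, 261 and 239.5 CPM with BAY-850. All treated libraries were above the controls, though the lowest was close to them (1.13 times, log2 difference 0.17 ± 0.053). In PA-1, AMOTL2 was 158, 168 and 160.3 CPM with DMSO and 182, 176 and 166 CPM with BAY-850, and the groups overlapped (0.11 ± 0.057).

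AMOTL1 lay above its controls in PA-1 and overlapped with them in SK-OV-3. In PA-1, it was 95.6, 103 and 98.1 CPM with DMSO and 117, 117 and 103 CPM with BAY-850, with the third treated library barely above the highest control (1.14 times, log2 difference 0.19 ± 0.063). In SK-OV-3, it was 42.2, 47.7 and 51.7 CPM with DMSO and 47.3, 44.6 and 38.6 CPM with BAY-850 (log2 difference -0.11 ± 0.091). LATS2 (ENSG00000150457.8, chr13:20973032-21061547, minus strand), the kinase that phosphorylates YAP and TAZ, differed little in either line. The LATS2 log2 difference was 0.019 ± 0.067 in PA-1, where its levels ran from 44.8 to 50.7 CPM over both groups, and 0.090 ± 0.076 in SK-OV-3, where they ran from 68.5 to 83.7 CPM. Groups overlapped in both lines.

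YAP1 (ENSG00000137693.13, chr11:102110461-102233423, plus strand) had the tightest replicates in PA-1. Its level was 371, 372 and 377 CPM with DMSO and 374, 373 and 379 CPM with BAY-850 (log2 difference 0.0086 ± 0.049). In SK-OV-3, it was 179, 188 and 198 CPM with DMSO and 176, 182 and 164 CPM with BAY-850 (-0.10 ± 0.055), with overlap. WWTR1 (ENSG00000018408.14, chr3:149517235-149736714, minus strand) is the other coactivator gene, and its groups lay apart in SK-OV-3. There, WWTR1 was 292, 318 and 317 CPM with DMSO and 238, 218 and 228 CPM with BAY-850, without overlap (0.744 times, log2 difference -0.43 ± 0.055). In PA-1, WWTR1 was 77.3, 85.3 and 78.2 CPM with DMSO and 79.4, 77.6 and 74.0 CPM with BAY-850, with overlap (-0.059 ± 0.061).

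The TEAD factors of the set stayed close to their controls. TEAD1 (ENSG00000187079.16, chr11:12674591-12944483, plus strand), in PA-1, was 80.1, 93.2 and 85.2 CPM with DMSO and 96.8, 94.8 and 81.3 CPM after BAY-850 (log2 difference 0.079 ± 0.075). In SK-OV-3, TEAD1 was 125, 148 and 161 CPM with DMSO and 134, 134 and 116 CPM with BAY-850 (-0.17 ± 0.086). Replicates of TEAD1 were spread more widely than those of any other of the 10 genes in SK-OV-3 with DMSO, relative to its mean, and the groups overlapped in both lines. TEAD4 (ENSG00000197905.8, chr12:2959330-3040673, plus strand), in PA-1, was 63.0, 65.8 and 66.0 CPM with DMSO and 59.9, 65.7 and 70.0 CPM after BAY-850 (log2 difference 0.0069 ± 0.067). In SK-OV-3, it was 23.8, 22.3 and 24.9 CPM with DMSO and 22.5, 23.0 and 21.7 CPM with BAY-850 (-0.068 ± 0.085), with overlap in both lines.

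**Figure D3:**
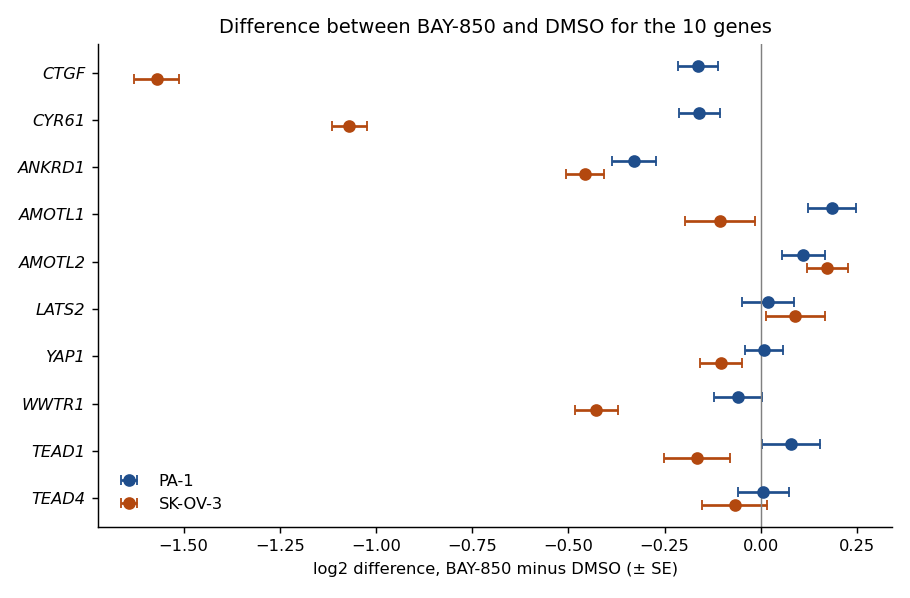
Log2 difference between BAY-850 and DMSO (x axis, points, with bars of ± 1 SE) for each of the 10 genes in PA-1 and SK-OV-3. CTGF at -1.57 and CYR61 at -1.07 in SK-OV-3 lie far from the other values, which run from -0.46 to 0.19.

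Counted over the set, 1 gene lay above all its controls in PA-1 (AMOTL1) and 3 lay below (CTGF, CYR61 and ANKRD1), where 14.1% and 13.3% of 15212 genes did so. In SK-OV-3, 1 gene lay above (AMOTL2) and 4 lay below (CTGF, CYR61, ANKRD1 and WWTR1), against 18.1% and 20.5% of 15348 genes. The 10 genes were selected on these responses, so nothing is read from these counts. Their median log2 difference was 0.0077 in PA-1 and -0.14 in SK-OV-3, beside -0.0019 and -0.0091 over all genes.

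Within a group, the libraries kept a common order over many of the 10 genes. SK-OV-3 BAY-850 replicate 3, which had the fewest genes with a count, was the lowest of its group for 8 of the 10. SK-OV-3 DMSO replicate 1 was the lowest of its group for 8, and PA-1 DMSO replicate 1 for 8. In the remaining group, PA-1 BAY-850 replicate 3 was the lowest for 7. The low library of each group also had the highest share of ribosomal RNA counts in that group. This share ran from 12.2% in SK-OV-3 BAY-850 replicate 3 to 16.9% in PA-1 BAY-850 replicate 3. Its part in the common order was not tested. Without SK-OV-3 BAY-850 replicate 3, the log2 difference in SK-OV-3 was -1.53 for CTGF, -1.04 for CYR61, -0.50 for ANKRD1, -0.44 for WWTR1 and 0.21 for AMOTL2. For the genes nearer 0 it was -0.038 for AMOTL1, 0.14 for LATS2, -0.074 for YAP1, -0.11 for TEAD1 and -0.058 for TEAD4, so that AMOTL1, LATS2 and TEAD1 moved by over 1.5 times.

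Between the lines with DMSO alone, the 10 genes differed by more than most did with the drug. All 10 passed the test (edgeR quasi-likelihood, Benjamini-Hochberg), 6 higher and 4 lower in SK-OV-3, but the lines were so unlike that 40.1% of 16070 genes were higher and 40.2% lower, so the count is near the background. The largest gap was that of WWTR1, at 3.84 times the PA-1 level in SK-OV-3 (log2 difference 1.94 ± 0.061, adjusted p = 1.2e-11, edgeR). TEAD4 went the other way, at 0.364 times (-1.46 ± 0.068, adjusted p = 5.7e-10, edgeR), as did AMOTL1 at 0.476 times (-1.07 ± 0.075, adjusted p = 3.0e-08, edgeR) and YAP1 at 0.504 times (-0.99 ± 0.053, adjusted p = 2.2e-09, edgeR). Higher in SK-OV-3 were TEAD1 at 1.67 times, LATS2 at 1.59 times, CYR61 at 1.51 times, AMOTL2 at 1.42 times and ANKRD1 at 1.18 times. CTGF was lower, at 0.692 times. The largest adjusted p of the 10 was that of ANKRD1, 0.00078 by edgeR. Line and medium cannot be told apart, and these DMSO libraries are also the controls of the responses above.

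Levels of different genes were compared only per kb of the longest annotated transcript. In PA-1 with DMSO, ANKRD1 and CYR61 came first at 254 ± 11.4 and 243 ± 4.41 CPM per kb (SD, n = 3), and their libraries overlapped. CTGF followed at 119 ± 1.86, then YAP1 at 69.2 ± 0.594, TEAD4 at 38.4 ± 1.00, AMOTL2 at 35.8 ± 1.201 and WWTR1 at 16.0 ± 0.867 CPM per kb. AMOTL1 and TEAD1 overlapped at 11.0 ± 0.414 and 10.2 ± 0.779, and LATS2 was last at 8.66 ± 0.484 CPM per kb. In SK-OV-3 with DMSO, the order began with CYR61 at 367 ± 2.18, ANKRD1 at 300.2 ± 2.58 and CTGF at 82.7 ± 2.67, and WWTR1 had moved up to the fourth place at 61.5 ± 2.90 CPM per kb. AMOTL2 at 50.9 ± 1.57 and YAP1 at 34.9 ± 1.78 came next. TEAD1 at 17.1 ± 2.16, TEAD4 at 14.01 ± 0.773 and LATS2 at 13.8 ± 1.30 overlapped in turn, and AMOTL1 was last at 5.26 ± 0.534 CPM per kb. With BAY-850, CTGF went from the third to the sixth place in SK-OV-3, at 27.6 ± 1.88 CPM per kb, while in PA-1 ANKRD1 and CYR61 exchanged places, as did TEAD4 and AMOTL2, and the other 6 kept theirs. The libraries of both exchanged pairs overlapped with BAY-850. Over the union of exons, WWTR1 overlapped with AMOTL2 in SK-OV-3 with DMSO. CTGF was in the fourth place with BAY-850 there, its libraries overlapping with those of YAP1. In PA-1 with DMSO, TEAD1 was last by this length at 8.38 CPM per kb, overlapping with LATS2 at 8.56. AMOTL1 stood above WWTR1 there, also with overlap. With BAY-850 in PA-1, LATS2 was last by this length, so it and TEAD1 exchanged places too, again with overlap.

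The balance within each family is given as shares of its summed level per kb. WWTR1 made up 18.7% ± 0.861 of the summed WWTR1 and YAP1 level per kb in PA-1 with DMSO and 63.8% ± 0.688 in SK-OV-3 with DMSO (SD, n = 3). With BAY-850 the share was 18.05% ± 0.651 and 58.4% ± 1.87, and in SK-OV-3 the treated libraries, 56.3% to 59.8%, lay below the controls, 63.2% to 64.5%. Over the union of exons in place of the longest transcript, the shares were 13.9% and 55.1% with DMSO, so with DMSO SK-OV-3 had more WWTR1 than YAP1 by either length and PA-1 had less. With BAY-850, the share in SK-OV-3 over the union of exons was 49.5% ± 1.92, with libraries on both sides of an even split. The summed level itself was 85.1 ± 0.942 CPM per kb in PA-1 and 96.4 ± 4.46 in SK-OV-3 with DMSO, and 84.8 ± 0.324 and 77.6 ± 2.15 with BAY-850. Over the union of exons, it was 68.9 ± 0.645 in PA-1 and 66.7 ± 3.10 in SK-OV-3 with DMSO, and the libraries overlapped. The order of the lines with DMSO thus depended on the length used. With BAY-850, the sum by this length was 68.7 ± 0.308 and 54.7 ± 1.55.

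AMOTL2 made up 76.5% ± 0.102 of AMOTL1 and AMOTL2 in PA-1 with DMSO and 90.7% ± 0.608 in SK-OV-3, and 75.6% ± 0.630 and 92.2% ± 0.281 with BAY-850. Among TEAD1 to TEAD4, TEAD4 held the largest share in PA-1 with DMSO, 46.8% ± 0.511, and TEAD1 the smallest, 12.4% ± 0.843. In SK-OV-3 with DMSO, TEAD1 held 33.0% ± 2.89 and TEAD4 27.1% ± 1.23. The share of TEAD3 in SK-OV-3 went from 17.6% ± 1.47 with DMSO to 25.1% ± 1.27 with BAY-850, while those of TEAD1 and TEAD4 were 29.3% ± 1.79 and 25.8% ± 0.246 with BAY-850. Over the union of exons, TEAD3 went from 20.7% ± 1.70 to 29.2% ± 1.41 in SK-OV-3. By this length TEAD1 held 28.7% ± 1.81 with BAY-850, overlapping with TEAD3, and TEAD4 held 22.8% ± 0.269.

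**Figure D4:**
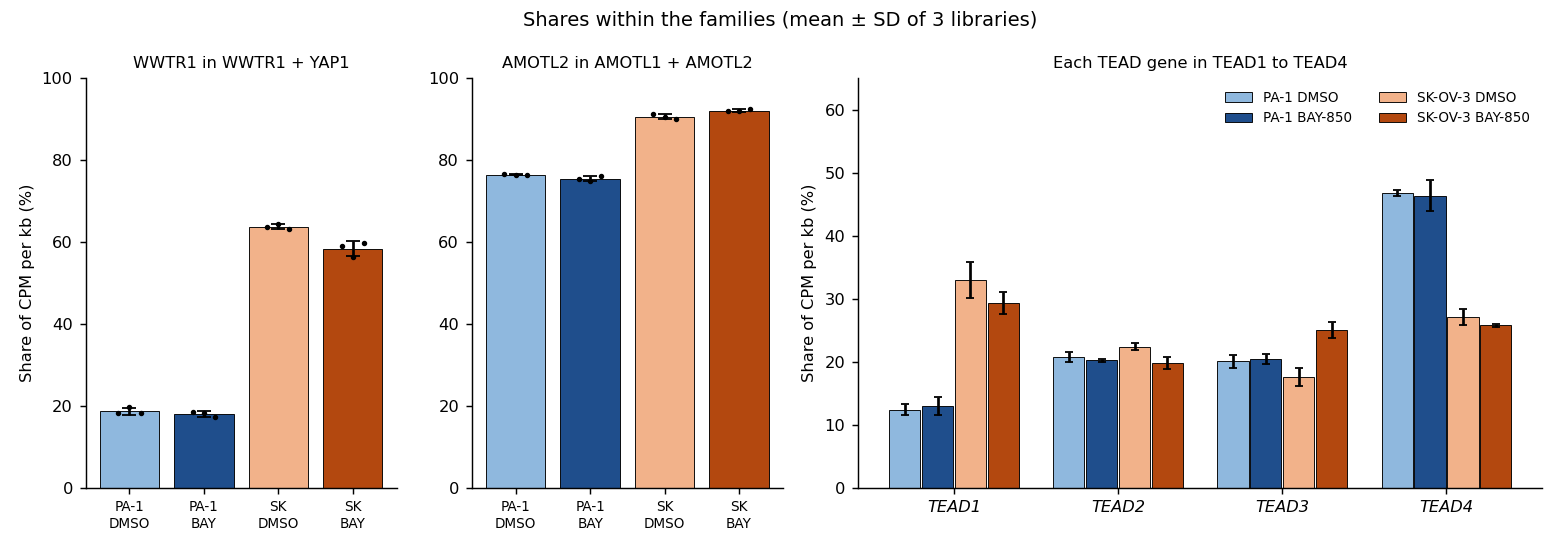
Share (%) of the summed CPM per kb of a family held by WWTR1, AMOTL2 and each TEAD gene in the 4 groups; bars are means, error bars the SD of 3 libraries and dots single libraries. WWTR1 holds 18.7% in PA-1 and 63.8% in SK-OV-3 with DMSO.

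The close relatives of the 10 genes were read next. Of these, TEAD3 passed the test in SK-OV-3. It was 28.3, 26.4 and 26.3 CPM with DMSO and 38.8, 37.2 and 39.5 CPM with BAY-850, and rose by 0.52 ± 0.077 (adjusted p = 0.00069, edgeR). In PA-1, its log2 difference was 0.045 ± 0.063 (adjusted p = 0.72, edgeR), and the responses of the lines differed by 0.47 ± 0.089 (interaction, adjusted p = 0.0026, edgeR), where 14.5% of all 16830 genes passed that test. TEAD2 did not pass in either line, with -0.012 in PA-1 and -0.17 in SK-OV-3. LATS1, the partner kinase of LATS2, had -0.12 and 0.082, and neither passed. AMOT, the founding angiomotin, was at 26.7 to 32.5 CPM in PA-1 and 0.570 to 1.07 CPM in SK-OV-3, and passed the test of the drug in neither line.

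The CCN relatives were split by line. NOV was at 36.9 to 39.8 CPM in SK-OV-3 with DMSO and 32.4 to 34.4 CPM with BAY-850 (-0.17 ± 0.072, adjusted p = 0.11, edgeR) and at 0.0283 CPM or less in PA-1. WISP2 was at 11.5 to 17.3 CPM in SK-OV-3 and 0.0485 CPM or less in PA-1, and its log2 difference with the drug in SK-OV-3 was 0.33 ± 0.14 (adjusted p = 0.11, edgeR). WISP1 was at 2.23 to 4.13 CPM in PA-1 and 0.0503 CPM or less in SK-OV-3, and in PA-1 it did not pass the test (-0.36 ± 0.23, adjusted p = 0.38, edgeR). WISP3 was at 0.289 CPM or less in all libraries and was not tested. ANKRD2 was at 0.880 CPM or less, and its log2 difference in SK-OV-3 was -0.48 ± 0.69. ANKRD23 was at 0.579 to 2.46 CPM and passed in neither line (-0.72 ± 0.35 in PA-1 and 0.030 ± 0.29 in SK-OV-3).

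Other genes widely used as YAP and TAZ targets are read against all genes, of which 4.65% were higher and 2.48% lower in PA-1 and 10.8% higher and 9.56% lower in SK-OV-3 at an adjusted p under 0.05 by edgeR. Of 17 in the list, 15 were tested in PA-1, where 1 rose and 0 fell, and 17 in SK-OV-3, where 3 rose, 2 fell and 12 did not pass. These counts are near those shares. Their median log2 difference was 0.031 in PA-1 and -0.056 in SK-OV-3. TGFB2, a TGF-beta ligand, went from 9.81, 11.8 and 11.9 CPM to 6.27, 5.19 and 4.26 CPM in SK-OV-3 (-1.08 ± 0.17, adjusted p = 0.0010, edgeR), a call lost in 1 of 17 settings. CCDC80, a matrix protein gene, went from 80.3, 75.9 and 79.8 CPM to 41.4, 40.4 and 51.2 CPM (-0.81 ± 0.095, adjusted p = 0.00015, edgeR). NUAK2, a kinase of the AMPK family, rose from 14.7, 13.9 and 12.4 CPM to 23.7, 25.7 and 18.5 CPM (0.74 ± 0.13, adjusted p = 0.0020, edgeR). NT5E (0.18 ± 0.058, adjusted p = 0.045, edgeR) and AXL (0.14 ± 0.044, adjusted p = 0.043, edgeR) rose slightly in SK-OV-3, and these calls were lost in 7 and 12 of 17 other settings. In PA-1, ARHGEF17 rose (0.30 ± 0.073, adjusted p = 0.023, edgeR), a call lost in 7 of 17 settings.

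In the Hippo cascade and its regulators, all 18 genes of the list were tested. In PA-1, 1 rose and 0 fell, with a median log2 difference of 0.082, and in SK-OV-3, 3 rose and 3 fell, with a median of 0.048. With so few genes, these counts too are near the shares of all genes given for the targets. FRMD6, an upstream activator of the cascade, was 222, 251 and 257 CPM with DMSO and 178, 171 and 177 CPM with BAY-850 in SK-OV-3 (-0.46 ± 0.061, adjusted p = 0.00035, edgeR). NF2, which encodes the tumour suppressor merlin, fell by 0.19 ± 0.060 (adjusted p = 0.042, edgeR) and the kinase gene TAOK1 fell by 0.22 ± 0.071 (adjusted p = 0.047, edgeR) in SK-OV-3, and both were lost in at least 8 of 17 settings. The scaffold gene SAV1 (0.27 ± 0.066, adjusted p = 0.014, edgeR), WWC1 (0.27 ± 0.073, adjusted p = 0.023, edgeR) and AJUBA (0.23 ± 0.057, adjusted p = 0.015, edgeR) rose in SK-OV-3, calls lost in 2, 5 and 3 of 17 settings. The LIM domain gene LIMD1 rose in PA-1 (0.25 ± 0.064, adjusted p = 0.032, edgeR), a call lost in 8 of 17 settings.

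VGLL4, which competes with YAP for TEAD, changed in opposite directions. In PA-1 it was 39.5, 43.9 and 40.4 CPM with DMSO and 59.1, 60.0 and 56.8 CPM with BAY-850 (0.51 ± 0.064, adjusted p = 0.00021, edgeR). In SK-OV-3 it was 47.8, 54.6 and 55.1 CPM with DMSO and 43.4, 43.3 and 33.2 CPM with BAY-850 (-0.38 ± 0.099, adjusted p = 0.019, edgeR), a call lost in 2 of 17 settings, and the difference between the responses was -0.90 ± 0.13 (adjusted p = 0.00037, edgeR). Of the 6 TEAD and VGLL genes outside the set, 4 were tested in each line. VGLL3 passed in neither line (adjusted p = 0.83 and 0.55, edgeR), and VGLL1 and VGLL2 were too low to test.

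Targets of SRF, an actin-regulated factor, are given for comparison, and how alike the lists are was not measured. Of 12, 3 rose and 0 fell in PA-1, and of the 11 tested in SK-OV-3, 0 rose and 7 fell, with median log2 differences of 0.098 and -0.29. Of all genes, 4.65% were higher in PA-1 and 9.56% lower in SK-OV-3. TAGLN was 377, 330.3 and 316 CPM with DMSO and 64.9, 66.0 and 59.1 CPM with BAY-850 in SK-OV-3 (-2.42 ± 0.074, adjusted p = 6.1e-09, edgeR). MYL9 (-1.08 ± 0.27, adjusted p = 0.015, edgeR), ACTB (-0.47 ± 0.044, adjusted p = 2.7e-05, edgeR) and ACTG1 (-0.40 ± 0.041, adjusted p = 5.9e-05, edgeR) fell there as well, and the call of MYL9 was lost in 3 of 17 settings. MYL9 was low in SK-OV-3, at 4.61 to 5.74 CPM with DMSO and 1.85 to 3.24 CPM with BAY-850. In PA-1, FLNA (0.38 ± 0.060, adjusted p = 0.0016, edgeR), CNN2 (0.28 ± 0.058, adjusted p = 0.0095, edgeR) and ACTB (0.24 ± 0.051, adjusted p = 0.011, edgeR) rose, and the calls of CNN2 and ACTB were lost in 4 and 1 of 17 settings. All the lists were written with earlier results of these data known.

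**Figure D5:**
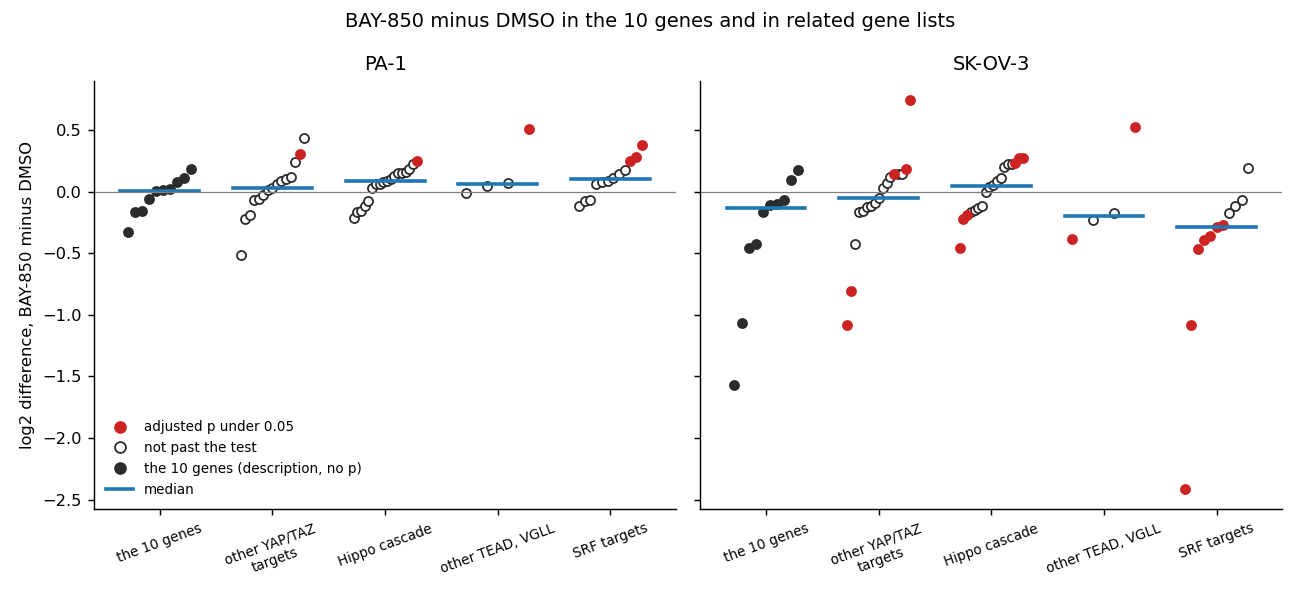
Log2 difference between BAY-850 and DMSO (y axis) for each tested gene of 5 lists in PA-1 and SK-OV-3; red points passed an adjusted p under 0.05, open points did not, black points are the 10 genes, shown as a description with no p, and blue lines are medians. In SK-OV-3, the medians of the 10 genes and of the SRF targets are -0.14 and -0.29.

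To find the genes with the most similar pattern, the log2 CPM of each gene was centred on the mean of its line, and Pearson's r over the 12 libraries was taken over 12060 genes with a mean of at least 1 CPM in each line. The 12 points share libraries and depth. For CTGF and CYR61 the values rest mostly on the gap between SK-OV-3 groups, and for ANKRD1 (-0.33 in PA-1 and -0.46 in SK-OV-3) on both lines. All r values are therefore a description. Nearest to CTGF were FOS (r = 0.996), HES1 (0.994), FOSB (0.992), CYR61 (0.991) and SGK1 (0.990). FOS encodes a subunit of AP-1, and its log2 difference with BAY-850 was -2.10 in SK-OV-3 and -0.25 in PA-1. Nearest to CYR61 were FOS (0.994), TMPO and ODC1 (both 0.991), CTGF (0.991) and DDX5 (0.990). The genes most like ANKRD1 were others: RCN2 (0.967), PRSS23 (0.963), HSPA6 (0.961), PLK4 (0.960) and EID1 (0.957), with CYR61 at the 114th place (0.874) and CTGF at the 254th (0.835). WWTR1 was at the 90th place of likeness to CTGF (0.945), while AMOTL2 had r = -0.66.

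Gene properties of the 10 differed widely. The longest transcript ran from 1.69 kb (TEAD4) to 8.97 kb (AMOTL1), and its GC content from 40.9% (WWTR1) to 60.4% (TEAD4), at the 18.6th and 86.4th percentiles of coding genes. This matters in PA-1, where the log2 difference between BAY-850 and DMSO rose with GC content over 13798 coding genes (Spearman's rho = 0.388, across genes, which are not independent), with a median of -0.13 over the most GC-poor 10% and of 0.12 over the most GC-rich 10%, and less so in SK-OV-3 (rho = 0.0971). With each library centred on its GC trend, the log2 differences of CTGF were -0.21 in PA-1 and -1.51 in SK-OV-3, those of CYR61 -0.19 and -1.01, those of ANKRD1 -0.29 and -0.38, and that of WWTR1 in SK-OV-3 -0.34. The GC-rich TEAD4 and AMOTL2 went to -0.10 and 0.032 in PA-1. The expected counts of TEAD4 were exact whole numbers in 75% of libraries and those of the other 9 genes in 100%, as happens where some reads also fit another gene. CTGF, AMOTL1, YAP1 and WWTR1 have an annotated antisense gene that overlaps their exons. WWTR1-AS1, the one in the count table, held at most 25 counts in any library, and the strand setting of the counting was not stated.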

How the data were processed

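RNA was measured in 12 libraries, 3 separate samples for each of 4 groups, and p-values measure the spread between these samples. The deposited table held expected counts per gene symbol, which the authors made with RSEM 1.2.15 and Bowtie2 2.1.0 on hg38 according to the submitters' processing notes. The annotation and strand setting were not given in the sources used here, and the sources name both oligo-dT selection and ribosomal RNA depletion. Ribosomal RNA genes took 7.94% to 16.9% of the counts, and each library held 34544505 to 51840233 counts.

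Counts were rounded and tested with edgeR 4.0.16 (R 4.3.3) by quasi-likelihood F-tests with TMM factors, filterByExpr and Benjamini-Hochberg adjustment over all genes tested: the drug within each line, the lines with DMSO, and the interaction over all 12 libraries. DESeq2 1.42.0, limma 3.58.1, other scalings, filters, a GC correction, a replicate block and leaving out each library were alternatives. Fits were also run on simulated counts with known changes, which had the same spread for all genes and no GC trend. That run does not cover the GC trend of the data. Coordinates and lengths came from GENCODE on GRCh38, matched by symbol, and promoters from RefSeq (GRCh38.p14). The 10 genes and all lists were chosen with earlier results of these data known. The genes named from a list passed the test, showed groups without overlap and reached 1 CPM on average, with at most 4 for each line and direction, and all relatives of the 10 genes are named.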

Additional observations from a re-analysis of the deposited data

Results flagged for a closer look

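A test of the interaction, over all 12 libraries with edgeR, marked 18 of 56 tested genes of the related lists as differing between the lines in their response to BAY-850, where 14.5% of all genes were marked. The SRF list alone gave 8 of its 12 genes. All the lists were written with earlier results of these data known, so nothing is read from the pooled count. The 10 genes were selected on their responses and are given no p from the interaction test. The response in SK-OV-3 minus that in PA-1 was -0.90 on the log2 scale for VGLL4 and 0.47 for TEAD3. Among other YAP and TAZ targets it was 0.70 for NUAK2, -0.76 for CCDC80, -0.37 for MYOF and -0.25 for PTPN14. In the Hippo cascade it was -0.40 for FRMD6, -0.39 for TAOK1, -0.33 for NF2 and 0.34 for STK3. Among the SRF targets it was -2.51 for TAGLN, -0.99 for MYL9, -0.72 for ACTB, -0.68 for FLNA, -0.52 for ACTG1, -0.46 for VCL, -0.41 for CNN2 and -0.30 for TPM1. MYOF, PTPN14, STK3, VCL and TPM1 fell outside the rule for named genes and were named after their values were seen. Of 22 other settings, NF2 passed in 4, PTPN14 in 6, STK3 in 10, TAOK1 and MYOF in 13, TPM1 in 20 and FRMD6 in 21, and the other 11 genes in all 22. The adjusted p by edgeR ran from 1.8e-09 for TAGLN to 0.048 for NF2.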

How the results depend on the processing

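The log2 differences of the 10 genes kept their sign for CTGF, CYR61, ANKRD1, AMOTL1, AMOTL2 and TEAD1 under each scaling. In PA-1, LATS2, YAP1 and TEAD4, all near 0, changed sign with library sizes as the only scaling, with or without ribosomal RNA genes. With the GC correction, LATS2, WWTR1 and TEAD4 changed sign there. No scaling moved the median over all genes by over 0.1. For TEAD4, the response in SK-OV-3 minus that in PA-1 turned from -0.086 to 0.054 with the GC correction and 0.052 with the block added; the cause was not tested. The median of the 10 genes between the lines went from 0.37 to 0.30 with the GC correction, with and without the block. Genes called in PA-1 numbered 1085, against 1737 with DESeq2, 466 with library sizes only, 573 with the GC correction, 448 with the GC correction and the block, and 683 with all 12 libraries in 1 fit. Of the calls in PA-1, 65.2% were higher, against 50.4% with library sizes only and 51.9% without ribosomal RNA genes; in SK-OV-3 53.1% were, against 66.0% with the GC correction, and in the interaction 46.3%, against 57.9% with library sizes only and 63.2% with the GC correction. Leaving out 1 library gave 340 to 1228 calls in PA-1, with 489 and 340 without DMSO replicates 1 and 2 and 344 without BAY-850 replicate 2, and 1781 to 3902 in SK-OV-3, with 1781 and 1983 without DMSO replicates 2 and 3. It moved the median of the 10 genes in SK-OV-3 between -0.22 and -0.073. Between DMSO and BAY-850 of a line, deviations from the group means had correlations of -0.084 to 0.038 for samples of equal number. For samples of unequal number the correlations were -0.12 to 0.11. Equal numbers were not compared across the lines, so a batch shared by number was not tested. With the replicate block, calls were 931 in PA-1, 2716 in SK-OV-3, 12830 between the lines and 1957 in the interaction. AXL, NT5E and NF2 in SK-OV-3 lost their calls with the block. All 160 comparisons of single genes between the lines kept direction and call. Depth did not limit the 10 genes, each with at least 843 counts.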
